A study of Mus musculus with 14 samples.

Results

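Enteroendocrine hormones are described here by 10 genes, Gip, Gcg, Sst, Cck, Sct, Ghrl, Nts, Pyy, Tac1 and Tph1, chosen as main peptide hormone genes and the serotonin synthesis gene of the gut. Each symbol had a single identifier among the 55335 genes of the count tables, and each was read in all 14 libraries. The study sorted EGFP-positive cells of the Lgr5 locus, labelled intestinal stem cells, and sequenced their polyadenylated RNA. In the Chrm3 experiment every mouse carried Lgr5CreERT2-IRES-GFP, a tamoxifen-inducible Cre driven in Lgr5 cells, together with floxed Chrm3 alleles (Chrm3 flox/flox). Chrm3 encodes the M3 muscarinic acetylcholine receptor. The KO groups had received tamoxifen and the WT groups vehicle, in a 3-day injection that came before the procedure named ES, so that gene deletion and tamoxifen cannot be told apart. The groups were KO ES, KO NT, WT ES and WT NT, with n = 2 libraries each, where NT marks the libraries without ES. The labels of these 4 groups give no age and do not spell out ES. The ageing experiment compared old (18 months) with young (2 months) Lgr5CreERT2-IRES-GFP mice, n = 3 libraries each.

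Enteroendocrine cells are rare secretory cells scattered through the gut epithelium that sense the lumen and release hormones at their base. They descend from Lgr5 stem cells through progenitors marked by the transcription factor Neurog3, and they store hormones with chromogranins such as Chga in dense granules. Gip encodes the incretin of the upper gut, released after meals to promote insulin secretion. Gcg encodes proglucagon, which gut cells cut into the glucagon-like peptides, and Pyy and Nts encode peptide YY and neurotensin, which are typical of the lower gut. Sst encodes somatostatin, which inhibits the release of other hormones, Cck and Sct encode cholecystokinin and secretin, which act on the gallbladder and pancreas, and Ghrl encodes the appetite hormone ghrelin. Tac1, the precursor of substance P, and Tph1, the first enzyme of serotonin synthesis, mark enterochromaffin cells. A sorted stem cell population is not a sample of mature hormone cells, and in pools of sorted cells a smaller number of hormone cells and less hormone RNA per cell cannot be told apart.

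All 10 genes are protein coding in GENCODE release M21 on GRCm38, and no other gene overlaps them on their own strand. Gip lies on chromosome 11 (96024545 to 96030831, plus strand), Gcg on chromosome 2 (62474530 to 62483650, minus strand) and Sst on chromosome 16 (23889573 to 23890958, minus strand). These are the 3 genes with the highest level per kilobase in all 6 groups, and the DNA before their RefSeq start is shown because most called changes turn on them. The sequences come from RefSeq (GRCm38.p6), 5′ to 3′, with TATAAA, TGACGTCA (the cyclic AMP response element) and CAGATG (an E-box of the kind bound by Neurod1) in capitals on either strand. For Gip (chr11:96024295-96024544, plus strand) and Gcg (chr2:62483654-62483903, minus strand) they are the 250 bases before the start. For Sst (chr16:23890874-23890903, minus strand) 30 bases around its element are given. They lie before the RefSeq start of Sst but within its GENCODE gene, which begins 114 bases further upstream.
Gip: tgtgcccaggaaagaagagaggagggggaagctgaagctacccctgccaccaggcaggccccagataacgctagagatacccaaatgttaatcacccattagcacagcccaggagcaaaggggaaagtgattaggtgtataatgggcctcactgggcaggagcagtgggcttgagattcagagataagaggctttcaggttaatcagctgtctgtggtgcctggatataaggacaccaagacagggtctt
Gcg: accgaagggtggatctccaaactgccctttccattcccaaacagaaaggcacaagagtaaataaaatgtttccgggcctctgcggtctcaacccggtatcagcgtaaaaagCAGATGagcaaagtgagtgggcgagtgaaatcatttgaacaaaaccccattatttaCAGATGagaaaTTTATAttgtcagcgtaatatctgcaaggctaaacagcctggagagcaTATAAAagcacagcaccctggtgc
Sst: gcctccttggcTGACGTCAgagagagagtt
The Gcg window holds TATAAA at -24, its reverse complement TTTATA at -72 and CAGATG at -139 and -83, counted to the first base of each match. The Sst window holds TGACGTCA at -48, and the Gip window holds none of the 3 motifs in these exact letters. Among the windows of all 10 genes TATAAA occurred in 2, TGACGTCA in 1 and CAGATG in 4, against 12.4%, 1.55% and 14.4% of 32851 RefSeq windows of the same length. The looser E-box CANNTG, of which CAGATG is one form, occurred in 9 of the 10 and in 66.2% of all windows. All positions count from the RefSeq start, and the windows of Sst, Tac1 and Nts reach 114, 182 and 68 bases into their GENCODE genes. These matches describe letters and not bound sites.

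Total counts were 26.7 to 36.9 M in the 8 Chrm3 libraries and 32.4 to 35.8 M in the 6 ageing libraries, so that 3 counts, the limit a count of 0 allows, corresponded to 0.0808 to 0.112 CPM (counts divided by the library total in M, after TMM scaling). Mitochondrial genes took 8.74% of counts in KO NT replicate 2 and 6.12% to 7.53% elsewhere. Chrm3 was still counted in the libraries labelled KO, with 256 and 213 counts in KO ES, 343 and 254 in KO NT, 357 and 291 in WT ES, and 355 and 386 in WT NT. Which stretch of the gene was deleted is not stated in the labels, so counts over the whole gene are a weak check of the genotype. The sorting gene Lgr5 had 80.3 to 133 CPM in all 14 libraries. Genes of enteric neurons, which also use several of these peptides, were scarce: 16 such markers summed to 3.96 to 7.70 CPM, and Stmn2 and Sox10 had 0 counts in every library. The 11 islet and pancreas markers summed to 11.8 to 27.1 CPM, with 8 or 9 of them at 0 counts in a given library. Among them Ins1, Ins2 and Ppy had 0 counts in every library, and Iapp had 0 to 8 counts in the Chrm3 libraries.

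Per kilobase of exon, Gip RNA was the most abundant of the 10 in every group, with 21.7 ± 2.32 CPM per kb in KO ES, 14.9 ± 3.17 in KO NT, 64.6 ± 10.7 in WT ES, 28.5 ± 1.02 in WT NT, 93.7 ± 34.1 in old and 38.0 ± 7.85 in young (SD between libraries). Gcg came after it by group mean in 5 groups, with 4.21 ± 0.0641 CPM per kb in KO NT as its lowest and 25.8 ± 6.94 in old as its highest mean. Sst followed Gcg there, and the libraries of the pair overlapped in KO ES, WT NT and young. In WT ES the order was turned, with 14.3 ± 1.27 for Sst and 10.4 ± 3.40 for Gcg, and both Sst libraries lay above both Gcg libraries. Sct and Cck followed and did not separate beyond their spread in any group but young. In old they stood at 9.81 ± 2.28 for Sct and 11.2 ± 3.29 for Cck. Ghrl was next in every group, at 1.75 to 5.19 CPM per kb. Tac1, Tph1 and Nts came below it, with group means of 0.266 to 3.09 CPM per kb, and Pyy was last.

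Pyy was near the limit of detection. Its counts were 0 and 4 in KO ES, 0 and 0 in KO NT, 0 and 11 in WT ES, and 0 and 0 in WT NT, and it did not pass the count filter there, which left 9 of the 10 genes tested in the Chrm3 table. In the ageing table, where all 10 were tested, it had 11, 18 and 13 counts in old and 17, 2 and 7 in young. Of 19 genes for other gut peptides 3 passed the filter, and Insl5 and Vip had 0 counts in every library.

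**Figure D1:**
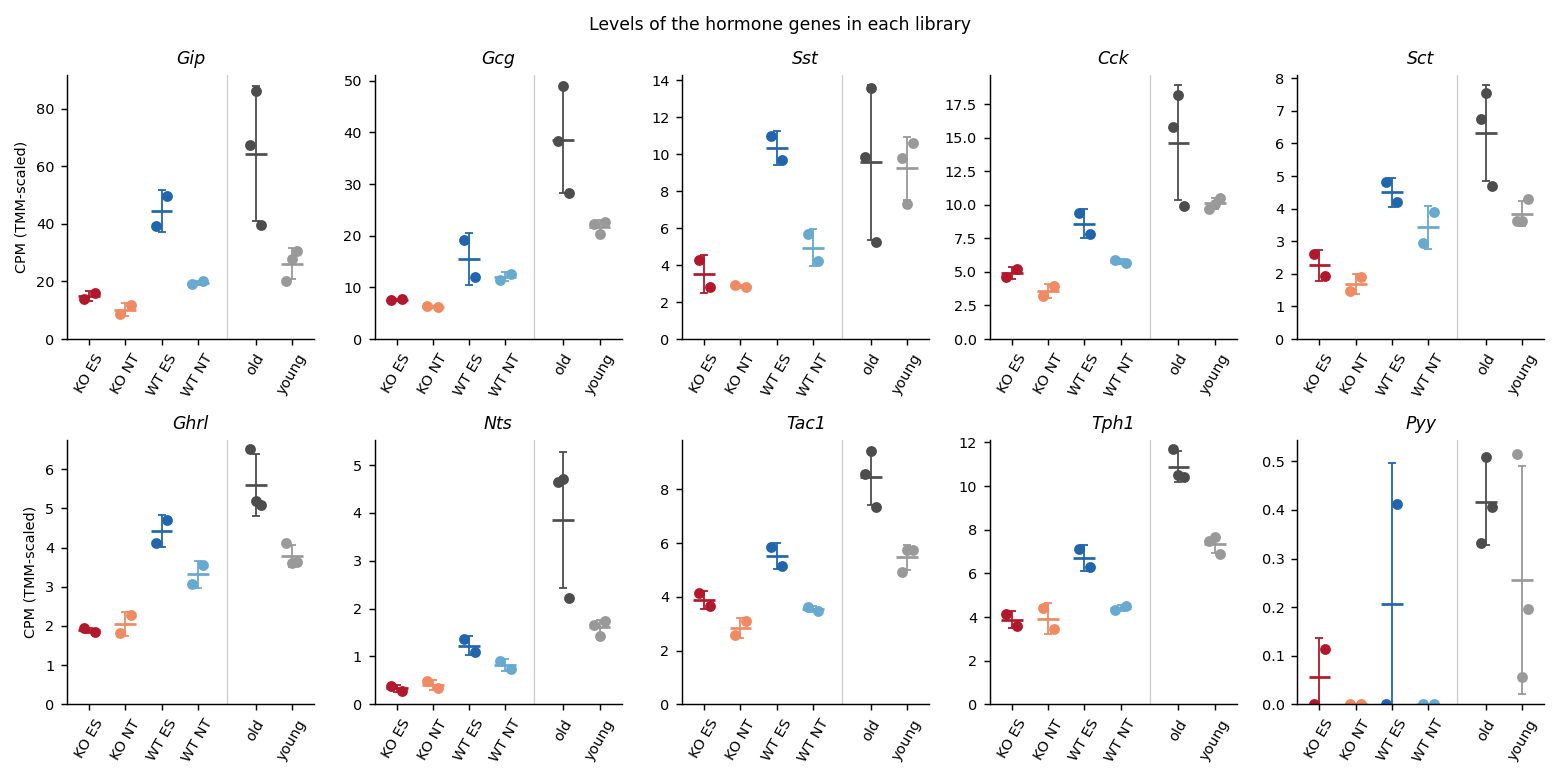
CPM after TMM scaling (y axis, starting at 0) of each hormone gene in each library, by group (x axis). Points are libraries, horizontal lines are group means and bars are standard deviations (n = 2 in the Chrm3 groups, n = 3 in old and young); bars that would pass below 0 end at the axis. Gip lies between 39.1 and 49.6 CPM in WT ES and at or below 20.1 CPM in the 6 other Chrm3 libraries.

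The first comparison asked how the hormone genes differed with ES when Chrm3 was intact. Gip and Sst rose in WT ES, with WT ES libraries well above the WT NT ones, and the 7 other tested genes did not pass the test. The incretin gene Gip had 39.1 and 49.6 CPM in WT ES, against 19.1 and 20.1 CPM in WT NT. Both ES libraries lay above both NT libraries, with a log2 fold change of 1.18 ± 0.15 (± standard error; edgeR quasi-likelihood test, adjusted p = 0.00345 over all genes). Sst had 11.0 and 9.69 CPM in WT ES, against 5.65 and 4.23 CPM in WT NT (log2 fold change 1.06 ± 0.20, edgeR adjusted p = 0.0206). Thus 2 of 9 tested hormone genes were higher, beside 2.10% of all 17364 tested genes. All 9 fold changes were above 0, with a median of 0.58, beside -0.0034 for all tested genes.

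For the other hormones the WT groups lay closer together. Gcg had 19.1 and 11.9 CPM in WT ES and 11.4 and 12.7 CPM in WT NT, so that the groups overlapped and the change came from WT ES replicate 1 alone (0.38 ± 0.19, edgeR adjusted p = 0.317). Cck had 9.40 and 7.82 CPM in WT ES and 5.91 and 5.64 CPM in WT NT (0.58 ± 0.17, edgeR adjusted p = 0.0877). The enterochromaffin genes came near the threshold as well, without reaching it. Tac1 had 5.85 and 5.16 CPM in WT ES and 3.61 and 3.46 CPM in WT NT (0.64 ± 0.19, edgeR adjusted p = 0.0946). Tph1 had 7.12 and 6.29 CPM in WT ES and 4.30 and 4.50 CPM in WT NT (0.61 ± 0.18, edgeR adjusted p = 0.101). For these 3 genes, and also for Sct, Ghrl and Nts below, both ES libraries were above both NT libraries. How often this held over all genes was not counted.

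Sct, Ghrl and Nts had the lowest levels and the least certain changes. The secretin gene Sct had 4.81 and 4.19 CPM in WT ES and 2.95 and 3.90 CPM in WT NT (0.40 ± 0.23, edgeR adjusted p = 0.403). Ghrl had 4.13 and 4.71 CPM in WT ES and 3.08 and 3.56 CPM in WT NT (0.41 ± 0.21, edgeR adjusted p = 0.329). Nts had 1.37 and 1.08 CPM in WT ES and 0.911 and 0.739 CPM in WT NT, from 22 to 42 counts per library (0.57 ± 0.36, edgeR adjusted p = 0.455). A p above the threshold does not show that these genes were alike in the groups.

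Genes that hormone cells share moved in part with Gip and Sst. Of 19 tested granin and general enteroendocrine genes 3 rose in WT ES and none fell: Chgb by 0.67 ± 0.09, Chga by 0.81 ± 0.12 and the granule membrane protein gene Ptprn2 by 0.63 ± 0.13 (edgeR adjusted p = 0.00520, 0.00897 and 0.0333). Among 23 tested enteroendocrine transcription factors, Pdx1, a factor of the upper gut and pancreas, rose by 0.57 ± 0.13 and the progenitor factor Sox4 fell by 0.56 on the log2 scale (edgeR adjusted p = 0.0467 and 0.00079). No gene for prohormone processing, serotonin handling or nutrient sensing passed. The serotonin receptor gene Htr4 was lower in WT ES (-0.55 ± 0.11, edgeR adjusted p = 0.0274), the one call among 9 tested hormone receptor genes.

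Markers of other cell types differed along with the hormone genes. Markers of goblet cells, another secretory lineage, summed to 10259 to 10468 CPM in WT ES and 5080 to 5197 CPM in WT NT, with 9 of 10 higher, and 4 of 10 Paneth markers and 2 of 10 enterocyte markers were higher as well. Stem cell markers summed to 11004 to 11369 CPM in WT ES and 14028 to 14348 CPM in WT NT, with 8 of 10 lower. Their part in the hormone result was not tested. The call for Gip was lost without either WT NT library (edgeR adjusted p up to 0.0816) and that for Sst without any one of the 4 WT libraries (up to 0.236), and without the count filter 1 hormone gene passed.

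In the KO, ES left no hormone gene past the threshold. Of 9 tested genes 0 were called by the edgeR test, beside 0.513% of all tested genes in either direction, and 0 by DESeq2 or limma-voom. An unadjusted edgeR p under 0.05 was found for 3, beside 1493 of all 17364 tested genes. Gip had 13.8 and 16.0 CPM in KO ES and 8.70 and 11.8 CPM in KO NT, so that both ES libraries were above both NT libraries (0.55 ± 0.16, edgeR adjusted p = 0.267). Sst had 4.25 and 2.81 CPM in KO ES and 2.91 and 2.79 CPM in KO NT, where the higher value rested on KO ES replicate 1 (0.29 ± 0.25, edgeR adjusted p = 0.862). Cck had 4.63 and 5.25 CPM in KO ES and 3.18 and 3.92 CPM in KO NT (0.49 ± 0.19, edgeR adjusted p = 0.480), and Tac1 had 4.13 and 3.66 CPM in KO ES and 2.59 and 3.10 CPM in KO NT (0.46 ± 0.20, edgeR adjusted p = 0.561). Gip, Cck and Tac1 were the genes with an unadjusted p under 0.05, and in each the groups did not overlap. How often groups lacked overlap over all genes was not counted.

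Among the remaining genes the KO groups did not overlap in Gcg and Sct and were close or mixed in the others. Gcg had 7.49 and 7.72 CPM in KO ES and 6.36 and 6.22 CPM in KO NT. Sct had 2.60 and 1.93 CPM in KO ES and 1.48 and 1.91 CPM in KO NT, parted by little. Their fold changes were 0.27 ± 0.21 for Gcg and 0.42 ± 0.29 for Sct (edgeR adjusted p = 0.835 and 0.799). Ghrl had 1.94 and 1.84 CPM in KO ES and 1.83 and 2.28 CPM in KO NT. Ghrl was one of 3 genes with a fold change below 0 (-0.11), the others being Nts (-0.32 ± 0.54) and Tph1 (-0.03 ± 0.20). Tph1 had 4.16 and 3.60 CPM in KO ES and 4.42 and 3.43 CPM in KO NT, so that the KO ES values lay between those of KO NT. Nts had 12 and 10 counts in KO ES and 18 and 11 in KO NT, too few to tell a moderate change. The median over the 9 genes was 0.29, beside -0.0020 over all genes, and 0 of 19 granin and general enteroendocrine genes passed. Chga changed by 0.06 ± 0.12 in this comparison (edgeR adjusted p = 0.964), while 7 of 10 goblet markers and 6 of 10 Paneth markers were higher and 3 of 10 enterocyte markers lower in KO ES.

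The comparison of KO with WT in NT asked how the hormone genes differed between the genotypes without ES. Gip and Gcg fell in KO NT, to levels below those of every WT library. In KO NT Gip averaged 10.2 ± 2.17 CPM, against 19.6 ± 0.700 CPM in WT NT (SD, n = 2 each; log2 fold change -0.94 ± 0.16, edgeR adjusted p = 0.00916). Gcg averaged 6.29 ± 0.0954 CPM in KO NT and 12.1 ± 0.870 CPM in WT NT (-0.94 ± 0.20, edgeR adjusted p = 0.0274). Those were 2 of 9 tested genes, beside 2.11% of all tested genes that were lower. The fold changes of all 9 were below 0, with a median of -0.80, beside -0.0106 for all genes.

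Among the genes that did not pass, Sct and Cck were closest to the threshold. Sct changed by -1.02 ± 0.27 (edgeR adjusted p = 0.0631) and Cck by -0.71 ± 0.19 (edgeR adjusted p = 0.0620), and in both genes the KO NT libraries lay below the WT NT libraries. Sst (-0.80 ± 0.24), Ghrl (-0.70 ± 0.23) and Nts (-0.99 ± 0.44) had fold changes of like size with adjusted p of 0.0980, 0.134 and 0.275 in the edgeR test. The enterochromaffin genes had the smallest values, -0.32 ± 0.21 for Tac1 and -0.16 ± 0.20 for Tph1 (edgeR adjusted p = 0.469 and 0.736). In Tph1 the groups overlapped.

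Chga itself did not pass in this comparison. It had 16.0 and 18.0 CPM in KO NT and 17.9 and 14.5 CPM in WT NT (0.06 ± 0.13, edgeR adjusted p = 0.860). As ratios to Chga in the same library, Gip stood at 0.545 and 0.654 in KO NT and at 1.06 and 1.38 in WT NT, and Gcg at 0.398 and 0.346 in KO NT and at 0.637 and 0.871 in WT NT. For Sst the ratios were 0.182 and 0.155 in KO NT and 0.315 and 0.291 in WT NT. All 3 hormones were thus lower in KO NT relative to this granule gene, with no overlap between the groups, a description that was not tested. The same held for Cck, with 0.199 and 0.218 in KO NT and 0.329 and 0.388 in WT NT, and for Sct, Ghrl, Nts and Tac1. Of the 19 granin and general enteroendocrine genes 17 had a fold change below 0 here, unlike Chga, so ratios to other genes of that list could differ. The Tph1 ratios overlapped, with 0.277 and 0.191 in KO NT and 0.240 and 0.309 in WT NT.

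**Figure D2:**
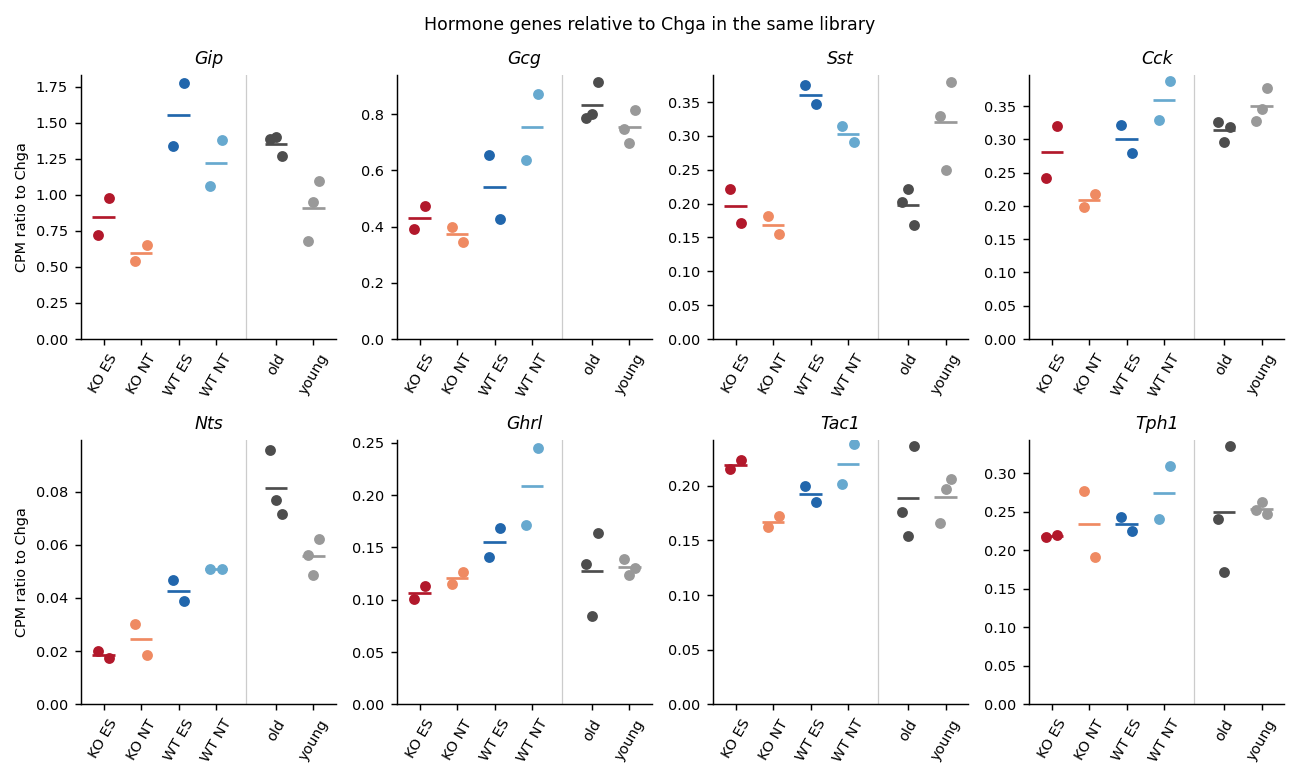
Ratio of the CPM of 8 hormone genes to the CPM of Chga in the same library (y axis, starting at 0), by group (x axis). Points are libraries and horizontal lines are group means, without a test; Gip lies at 0.545 to 0.979 in the 4 KO libraries and at 1.06 to 1.77 in the 4 WT libraries.

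Few of the wider enteroendocrine genes passed between KO NT and WT NT. Of 19 granin and general enteroendocrine genes 1 was lower, Ptprn2 (-0.61 ± 0.14, edgeR adjusted p = 0.0388), with a list median of -0.45. The serotonin transporter gene Slc6a4 was lower in KO NT (-0.53 ± 0.13, edgeR adjusted p = 0.0406), and so was Qpct, an enzyme that modifies peptide ends, with 0 and 0 counts in KO NT and 17 and 14 in WT NT. Of 23 transcription factors 2 were lower, Sox4 (-0.22 ± 0.05) and Pou2f3 (-1.20 ± 0.26), the second of which is known as the factor of tuft cells, with edgeR adjusted p of 0.0406 and 0.0269. Beside these, 10 of 10 goblet markers, 6 of 8 tested tuft markers and 3 of 10 Paneth markers were lower in KO NT. Goblet markers summed to 2608 to 2672 CPM in KO NT and 5080 to 5197 CPM in WT NT, and their part in the hormone result was not tested. The Gip call was lost without either WT NT library (edgeR adjusted p up to 0.100) and the Gcg call without any one of the 4 NT libraries (up to 0.211), and without the count filter 0 hormone genes passed.

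Under ES the genotypes were compared in the same way. Of the 9 tested hormone genes 8 fell in KO ES relative to WT ES, beside 4.47% of all tested genes that were lower, and Tac1 did not pass. The median of the 9 log2 fold changes was -1.04, beside 0.0039 for all genes. Gip averaged 14.9 ± 1.59 CPM in KO ES and 44.4 ± 7.38 CPM in WT ES (SD, n = 2 each; log2 fold change -1.57 ± 0.15, edgeR adjusted p = 0.000204). Sst averaged 3.53 ± 1.02 CPM in KO ES and 10.3 ± 0.917 CPM in WT ES (-1.56 ± 0.21, edgeR adjusted p = 0.00163). These calls were kept whichever single library was left out, with adjusted p no higher than 0.00367 for Gip and 0.0203 for Sst.

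The hormones of the lower gut were lower too. Gcg had 7.60 ± 0.160 CPM in KO ES and 15.5 ± 5.08 CPM in WT ES (-1.04 ± 0.19, edgeR adjusted p = 0.0103). Nts showed the fold change furthest from 0, -1.89 ± 0.44 (edgeR adjusted p = 0.0269), on the fewest counts, 12 and 10 in KO ES against 42 and 29 in WT ES. Among hormones of the upper gut, Ghrl averaged 1.89 ± 0.0651 CPM in KO ES and 4.42 ± 0.414 CPM in WT ES (-1.22 ± 0.23, edgeR adjusted p = 0.00993). Sct averaged 2.27 ± 0.476 CPM in KO ES and 4.50 ± 0.439 CPM in WT ES (-1.0 ± 0.25, edgeR adjusted p = 0.0343), and Cck 4.94 ± 0.435 CPM in KO ES and 8.61 ± 1.11 CPM in WT ES (-0.80 ± 0.17, edgeR adjusted p = 0.0178). In each of these 5 genes both KO ES libraries lay below both WT ES libraries, a pattern whose share over all genes was not counted.

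The enterochromaffin pair differed less. Tph1 averaged 3.88 ± 0.392 CPM in KO ES and 6.70 ± 0.589 CPM in WT ES (-0.80 ± 0.19, edgeR adjusted p = 0.0281). Tac1 averaged 3.89 ± 0.330 CPM in KO ES and 5.51 ± 0.487 CPM in WT ES, without passing (-0.51 ± 0.18, edgeR adjusted p = 0.126). Other genes of serotonin handling, Ddc, which makes serotonin from the product of Tph1, and Maob, which breaks amines down, were lower in KO ES (-0.39 ± 0.07 and -0.59 ± 0.16, edgeR adjusted p = 0.00683 and 0.0433). Those were 2 of 6 tested serotonin genes.

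Of the shared enteroendocrine genes 4 of 19 were lower in KO ES, Chgb (-0.58 ± 0.09), Chga (-0.69 ± 0.12), Cpe (-0.87 ± 0.20) and Ptprn2 (-0.56 ± 0.13), with edgeR adjusted p of 0.00405, 0.00764, 0.0279 and 0.0288. Cpe, the carboxypeptidase that trims prohormones, and Pcsk1, the convertase that first cleaves them (-0.60 ± 0.15, edgeR adjusted p = 0.0371), were the 2 of 10 tested processing genes that passed. Among 23 transcription factors 4 were lower, among them Isl1 and Pax6, known from maturing endocrine cells. Isl1 changed by -1.32 ± 0.28, Pax6 by -1.37 ± 0.36 and St18 by -1.03 ± 0.26 (edgeR adjusted p = 0.0191, 0.0438 and 0.0392), while Sox4 was higher by 0.28 ± 0.05 (0.0101). The irritant channel gene Trpa1 and the glucose transporter gene Slc5a1 were lower as well (-1.16 ± 0.29 and -0.56 ± 0.13), the 2 calls among 11 tested sensor genes. Slc5a1 also stands among the 10 enterocyte markers, 8 of which were lower in KO ES. Htr4 was higher (0.54 ± 0.11, edgeR adjusted p = 0.0153).

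Relative to Chga the KO ES and WT ES libraries still differed for some hormones and not for others. The Gip ratio was 0.719 and 0.979 in KO ES and 1.34 and 1.77 in WT ES, and the Sst ratio 0.222 and 0.172 in KO ES and 0.376 and 0.347 in WT ES, without overlap. Ratios of Nts, Ghrl and Sct were likewise lower in KO ES without overlap. Those of Tph1 were so by little, with 0.217 and 0.220 in KO ES and 0.243 and 0.225 in WT ES. The Gcg ratios overlapped, with 0.391 and 0.471 in KO ES and 0.653 and 0.427 in WT ES, and so did those of Cck. The Tac1 ratio was slightly higher in KO ES, at 0.215 and 0.224, than in WT ES, at 0.200 and 0.185. Goblet markers summed to 4413 to 4449 CPM in KO ES and 10259 to 10468 CPM in WT ES with 10 of 10 lower, tuft markers to 44.1 to 49.0 CPM in KO ES and 91.1 to 91.2 CPM in WT ES with 6 of 8 tested lower, enterocyte markers were lower in 8 of 10 cases, Paneth markers lower in 2 of 10 and stem cell markers higher in 4 of 10, and the part of these cells in the hormone result was not tested. Leaving out single libraries ended the calls of Gcg and Cck (WT ES replicate 1 and either KO ES library), Ghrl (replicate 2 of WT ES or KO ES), Sct (any WT library or KO ES replicate 2), and Nts and Tph1 (any library outside KO NT), with edgeR adjusted p up to 0.217. Between 2 and 8 hormone genes passed when 1 library was left out, the fewest, 2, in the absence of KO ES replicate 2, and 3 in the absence of WT ES replicate 1.

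**Figure D3:**
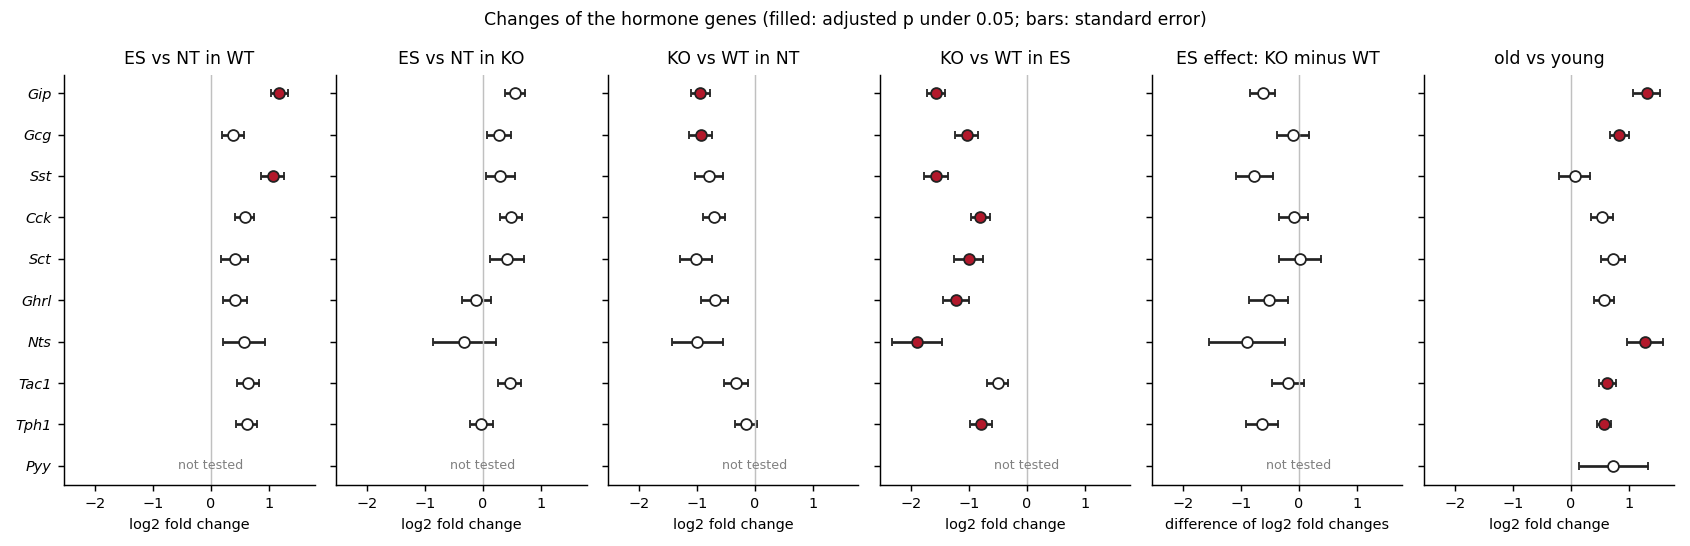
Log2 fold changes of the hormone genes (x axis; rows are genes) in the 6 comparisons. Points are estimates with bars of 1 standard error, filled where the adjusted p was under 0.05. In KO against WT in ES 8 of 9 points are filled and all lie below 0, and in ES against NT in KO none is filled.

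Whether the ES effect differed between KO and WT was tested directly. The Gip change was 0.55 in KO and 1.18 in WT, a difference of -0.63 ± 0.22 (edgeR adjusted p = 0.321). The Sst change was 0.29 in KO and 1.06 in WT, a difference of -0.77 ± 0.32 (edgeR adjusted p = 0.402), and for Tph1 the difference was -0.64 ± 0.27 (edgeR adjusted p = 0.403). None of the 9 tested hormone genes passed, beside 0.109% of all genes in either direction, and 0 passed by DESeq2 or limma-voom. An unadjusted edgeR p under 0.05 was found for 3, beside 1999 of all 17364 tested genes. The rise of Gip and Sst in WT and the absence of a call in KO are therefore not shown to be different responses. For Nts (-0.90), Ghrl (-0.52), Tac1 (-0.19), Gcg (-0.10) and Cck (-0.09) the differences were below 0 and for Sct (0.01) near it. Of the 23 transcription factors Sox4 passed (0.50 ± 0.07, edgeR adjusted p = 0.0475), and of the granin and general enteroendocrine genes none, with Chga at -0.75 ± 0.18 (edgeR adjusted p = 0.149).

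Age was compared in separate libraries. In cells from old mice Gip, Gcg, Nts, Tac1 and Tph1 rose, 5 of 10 tested hormone genes, beside 4.42% of all 16807 tested genes that were higher, and none fell. Gip had 67.5, 86.1 and 39.5 CPM in old libraries, against 20.1, 27.7 and 30.6 CPM in young libraries. The groups did not overlap, although old replicate 3 stood far below the other old libraries (log2 fold change 1.30 ± 0.24, edgeR adjusted p = 0.00697). Gcg had 38.3, 49.1 and 28.4 CPM in old and 22.2, 20.4 and 22.8 CPM in young (0.83 ± 0.16, edgeR adjusted p = 0.0102). Nts had 4.64, 4.71 and 2.22 CPM in old and 1.66, 1.42 and 1.74 CPM in young (1.27 ± 0.31, edgeR adjusted p = 0.0304). In all 3 genes replicate 3 was the lowest of the old libraries and still above every young library.

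The enterochromaffin genes varied less among the old libraries. Tph1 had 11.7, 10.5 and 10.4 CPM in old and 7.47, 7.65 and 6.88 CPM in young (0.57 ± 0.12, edgeR adjusted p = 0.0168). Tac1 had 8.56, 9.43 and 7.35 CPM in old and 4.93, 5.74 and 5.74 CPM in young (0.63 ± 0.15, edgeR adjusted p = 0.0292). In both genes every old library was above every young one.

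Of the genes that did not pass, Sct and Ghrl also had old libraries above all young ones. Sct had 6.75, 7.53 and 4.69 CPM in old and 3.63, 3.61 and 4.28 CPM in young (0.73 ± 0.20, edgeR adjusted p = 0.0553), and Ghrl 6.51, 5.19 and 5.10 CPM in old and 4.11, 3.61 and 3.64 CPM in young (0.57 ± 0.18, edgeR adjusted p = 0.0812). Cck overlapped, with 15.8, 18.2 and 9.88 CPM in old and 9.71, 10.1 and 10.5 CPM in young (0.54 ± 0.19, edgeR adjusted p = 0.119). Sst, the other hormone gene higher in WT ES, had 9.86, 13.6 and 5.22 CPM in old and 9.80, 7.31 and 10.6 CPM in young (0.06 ± 0.27, edgeR adjusted p = 0.932). Its old libraries spanned both sides of the young range. Pyy changed by 0.73 ± 0.59 (edgeR adjusted p = 0.550). The median over the 10 genes was 0.68, beside -0.0007 for all genes.

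Relative to Chga, which itself rose in old (0.71 ± 0.19, edgeR adjusted p = 0.0435), Gip stood at 1.39, 1.40 and 1.27 in old and 0.677, 0.947 and 1.10 in young. Old replicate 3, low in Gip, had 31.1 CPM of Chga against 48.6 and 61.4 CPM in the other old libraries, and its Gip ratio lay near theirs. Nts ratios did not overlap either, at 0.0955, 0.0768 and 0.0714 in old and 0.0560, 0.0487 and 0.0623 in young. Sst went the other way, with 0.203, 0.221 and 0.168 in old and 0.330, 0.250 and 0.380 in young. Cck did so by little, with 0.297 to 0.326 in old and 0.327 to 0.378 in young. The Gcg ratios overlapped, with 0.787 to 0.912 in old and 0.697 to 0.816 in young. Those of Tac1, Tph1, Sct, Ghrl and Pyy overlapped as well. These ratios were not tested.

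Among the wider enteroendocrine genes 6 of 19 rose in old, with a list median of 0.62: Chgb (0.72 ± 0.08), Cpe (1.01 ± 0.14), the transcription factor gene Rfx6 (1.10 ± 0.16) and the calcium channel gene Cacna1a (0.31 ± 0.07) had edgeR adjusted p of 0.000421, 0.00176, 0.00236 and 0.0242. Of 23 transcription factors 5 rose and 3 fell. Neurog3, the factor that commits progenitors to the endocrine fate, rose by 0.69 ± 0.13 and its target Insm1 by 0.91 ± 0.12, with Tox3 higher by 0.42 ± 0.08 and Pdx1 lower (-0.70 ± 0.13), at edgeR adjusted p of 0.00975, 0.00117, 0.00822 and 0.00613. Ddc rose by 0.57 ± 0.07 (edgeR adjusted p = 0.000645), 1 of 6 serotonin genes, and Cpe and the signal peptidase gene Sec11c (0.24 ± 0.07) were the 2 of 10 processing genes that rose. The peptide gene Vgf, 1 of 3 tested among other hormones, rose by 1.45 ± 0.38 (edgeR adjusted p = 0.0419).

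Among the receptors, Glp1r, which binds the glucagon-like peptide made from Gcg and is known in the gut from intraepithelial lymphocytes, had 88, 79 and 108 counts in old and 9, 24 and 17 in young (2.50 ± 0.35, edgeR adjusted p = 0.00167). Immune cell markers summed to 774 to 1065 CPM in old and 252 to 286 CPM in young, with 8 of 9 tested higher, and the part of such cells in the Glp1r change was not tested. Htr4 was lower in old (-0.43 ± 0.11, edgeR adjusted p = 0.0343), so that of 9 tested receptor genes 1 rose and 1 fell. Of 13 tested sensor genes 1 rose, again Glp1r, which is on both lists, and 1 fell, the adenosine receptor gene Adora1 (-0.86 ± 0.14, edgeR adjusted p = 0.00430). Goblet markers summed to 8813 to 9235 CPM in old and 6709 to 7975 CPM in young, with 3 of 10 higher and 2 lower, while 7 of 8 tested tuft markers and 3 of 10 Paneth markers were lower in old. Stem cell markers summed to 11810.2 to 14936.9 CPM in old and 12814.5 to 13285.1 CPM in young, with 1 of 10 lower. Among the old libraries replicate 3 had the highest stem cell marker sum and the lowest hormone sum. The part of all these cells in the hormone result was not tested. The Gip call was kept whichever library was left out (edgeR adjusted p up to 0.0369) and that for Gcg was lost without young replicate 2 (0.0556), while those for Nts, Tac1 and Tph1 were each lost without old replicate 1 or any young library, and for Nts and Tac1 also without old replicate 2 (up to 0.133). Of the 10 hormone genes only Gip passed without young replicate 2, 7 passed without old replicate 3, and 1 passed without the count filter.

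**Figure D4:**
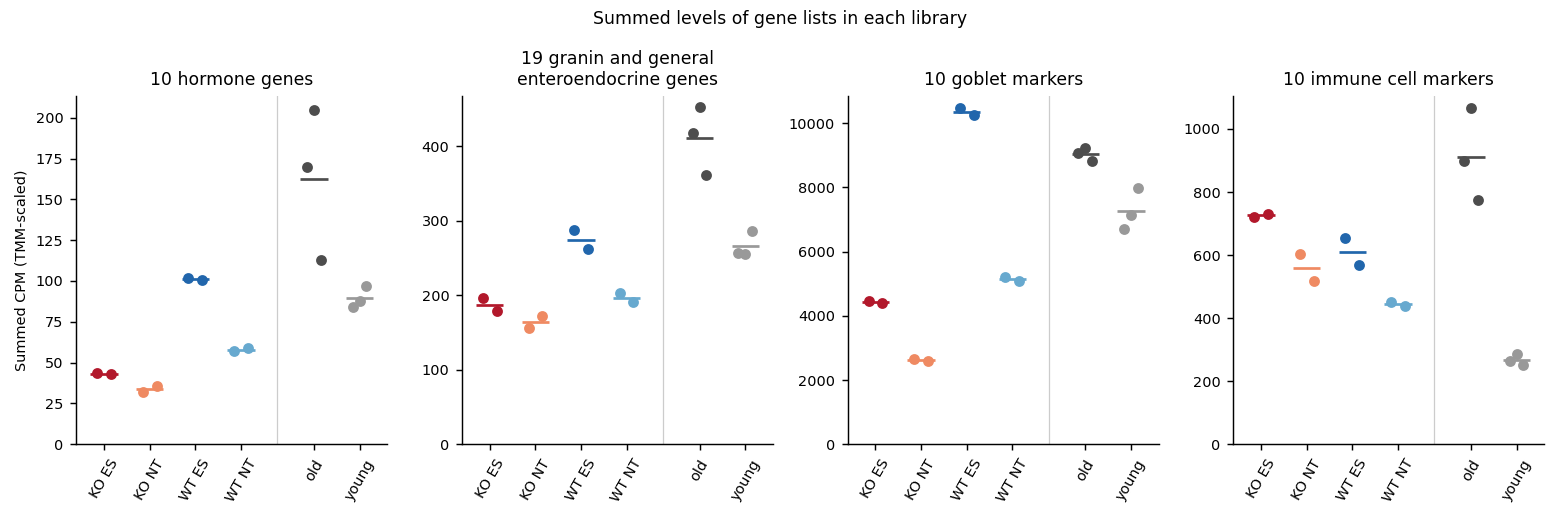
Summed CPM (y axis, starting at 0) of the 10 hormone genes, 19 granin and general enteroendocrine genes, 10 goblet markers and 10 immune cell markers in each library, by group (x axis). Points are libraries and lines are group means. The hormone sum lies at 43.2 to 43.4 CPM in KO ES, 31.9 to 35.8 in KO NT, 101 to 102 in WT ES and 57.0 to 58.8 in WT NT, and at 113 to 205 in old and 84.2 to 96.9 in young.

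Across the 14 libraries the genes whose log2 levels ran most like those of Gip, Gcg and Cck, the 3 hormone genes of highest mean CPM without scaling for length, were sought among 11927 genes, each centred on its own mean within its table. For Gip they were Zg16, Fcgbp and Rgs2, with root-mean-square differences of 0.298, 0.343 and 0.347 on the log2 scale beside a spread of 0.765 of Gip itself. Zg16 and Fcgbp encode secreted goblet cell proteins. For Gcg they were Scg2, Cacna2d1 and H2-T10 (0.184, 0.207 and 0.240 beside a spread of 0.501), of which Scg2 encodes the granule protein secretogranin II and Cacna2d1 a calcium channel subunit. For Cck they were B3gnt7, Selenom and Ptprn2 (0.176, 0.185 and 0.197 beside a spread of 0.426). The closest pair among the 8 hormone genes compared in this way, which leave out Nts and Pyy, was singled out after its value was seen. It was Tac1 and Chgb, with a difference of 0.0815 beside a spread of 0.344. The libraries share their groups, so that these likenesses describe 14 libraries and carry no test.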

How the data were processed

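Polyadenylated RNA of sorted cells was sequenced from strand-marking TruSeq libraries. The deposited tables hold raw counts per gene, whole numbers that the authors did not normalise. Per the submitters' processing notes the genome was mm10 and FastQC 0.11.2 was used; aligner and counting tool: not given in the sources used here. The Chrm3 table (8 libraries) and the ageing table (6 libraries) were analysed separately. Columns named Ctrl were read as NT. The labels do not say that libraries came from separate animals, so p-values measure the spread between libraries, which may be technical.

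Genes were kept by filterByExpr and scaled by the trimmed mean of M-values (TMM), and edgeR 4.0.16 under R 4.3.3 fitted a quasi-likelihood model with a mean for each group. The spread was estimated for each gene and shared by all groups of a table. The Benjamini-Hochberg adjustment ran over all genes tested, and rose or fell is written of genes with an adjusted p under 0.05. Standard errors of fold changes were derived from the fold change and its F statistic and are approximate. Levels are CPM computed from the counts after TMM scaling, and per kilobase values use merged exons of GENCODE M21. Replicates differed beyond sampling noise in a chi-square test of their counts. How often groups lacked overlap was not counted over all genes, so a lack of overlap only describes the libraries named. The fit was tested on simulated data.

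The members and gene lists were chosen with earlier results of these data known, so no p-value was adjusted over a list and no list was tested. The 10 hormone genes are always named, with up to 4 genes by smallest p from each other enteroendocrine list among those that passed, and the 3 genes most alike for the 3 hormone genes of highest mean CPM, not per kilobase (smallest root-mean-square difference of log2 CPM, prior count 2, mean of at least 1 CPM in each table). Of the genes that the rule takes, 1 is not reported here. Of marker lists for other cell types only counts and sums are given. Alternatives were other size factors, no count filter, DESeq2 1.42.0, limma-voom (limma 3.58.1), a term for the replicate number, fitting only the groups compared, leaving out each library and, added after seeing the data, the earlier form of that test in edgeR.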

Additional observations from a re-analysis of the deposited data

How the results depend on the processing

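No change of a hormone gene that passed turned its sign under any alternative run. Without the count filter the number of hormone genes that passed was 1 for ES against NT in WT, 0 for KO against WT in NT, 5 for KO against WT in ES and 1 for old against young, and all genes called were 114, 317, 593 and 666, with 8 for ES against NT in KO and 0 for the difference of the ES effects. Fitting only the 2 groups compared gave 4 hormone genes for ES against NT in WT, with 1875 of all genes, and 24 of all genes for ES against NT in KO. DESeq2 called 1028 of all genes for ES against NT in WT, 226 for ES against NT in KO and 211 for the difference, limma-voom 8 and the older quasi-likelihood form 11 for the difference; the main counts were 605, 89 and 19, with 776 for KO against WT in NT, 1312 for KO against WT in ES and 1318 for old against young.

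Leaving out 1 library gave 0 to 3 hormone genes for ES against NT in WT, 0 to 2 for KO against WT in NT, 2 to 8 for KO against WT in ES and 1 to 7 for old against young. All genes called ranged from 23 to 1209, 145 to 848, 375 to 1936 and 636 to 1485, from 11 to 278 for ES against NT in KO and from 0 to 363 for the difference. Where this leaves a group with 1 library, that library is assumed to vary like the others. To look for pairs, the group mean of each gene was subtracted from its log2 CPM. These deviations, not the levels, were then correlated between libraries of different groups. Between same-numbered libraries they correlated at -0.00832 to 0.103 in the Chrm3 table and 0.00454 to 0.0837 in the ageing table. Between other-numbered libraries they correlated at -0.103 to 0.00832 and at -0.105 to 0.0269. With 2 libraries a group the values of the Chrm3 table mirror each other, so they cannot decide whether the numbers mark pairs. The main fit did not read the numbers as pairs. With a replicate block 970 genes were called for ES against NT in WT, 206 for ES against NT in KO, 104 for the difference and 2019 for old against young, and the hormone genes called were 3 for KO against WT in NT and 7 for old against young. Depth limits Nts, with 10 to 42 counts per library in the Chrm3 table, and Pyy, with 0 to 11.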
